A study of Mus musculus with 12 samples.

Results

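The genes described here are the 7 CC chemokines Ccl2, Ccl3, Ccl4, Ccl5, Ccl7, Ccl8 and Ccl12 and the 2 receptors Ccr1 and Ccr2, followed in CT-26 tumors from mice that swam and from mice that did not. They were picked by symbol and found through their mouse Ensembl identifiers in the GENCODE M21 annotation, which gave 9 of the 30630 genes listed for each tumor. All 9 passed the filter on low values and were among the 19018 genes tested. CT-26 is a colon carcinoma line from the BALB/c mouse. The cells were injected with Matrigel under the skin of the right flank of young male BALB/c mice with an intact immune system. Control mice did no training, and mice of the swimming group trained in warm water for 3 weeks. Whole tumors were taken at the end, and total RNA from 6 tumors a group, drawn at random from a larger number of mice, was depleted of ribosomal RNA and sequenced. No allele, drug or other treatment set the groups apart, and each group is a set of grafts of 1 cell line.

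CC chemokines are small secreted proteins that attract leukocytes, and the family takes its name from a pair of neighboring cysteines near the start of the mature protein. Ccl2, Ccl7 and Ccl12 are ligands of Ccr2, the receptor that brings inflammatory monocytes from blood into tissue. Mouse Ccl8 is a relative of these ligands that signals through Ccr8. Ccl3, Ccl4 and Ccl5 are made by macrophages and activated lymphocytes, and Ccl3, Ccl5 and Ccl7 act on Ccr1. In tumors these genes are known mainly for the monocytes, macrophages and T cells that their products draw in.

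The stretch of coding sequence that gives the family its name is shown for each ligand, so that the degree of likeness between genes that were counted separately can be seen. Each line holds 42 coding bases on the gene's own strand, with the codons of the adjacent cysteines in capitals, in GRCm38 coordinates.
Ccl2, chr11:82036488-82036529, plus strand, exon 2 of 3: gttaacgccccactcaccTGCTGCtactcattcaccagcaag
Ccl7, chr11:82046520-82046561, plus strand, exon 2 of 3: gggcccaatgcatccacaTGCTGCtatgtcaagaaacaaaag
Ccl12, chr11:82102616-82102657, plus strand, exon 2 of 3: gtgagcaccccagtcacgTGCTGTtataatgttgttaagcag
Ccl8, chr11:82115312-82116079, plus strand, exons 1 and 2 of 3 joined: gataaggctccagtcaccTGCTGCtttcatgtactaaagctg
Ccl5, chr11:83529224-83529265, minus strand, exon 2 of 3: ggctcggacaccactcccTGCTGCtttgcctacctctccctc
Ccl3, chr11:83648634-83648675, minus strand, exon 2 of 3: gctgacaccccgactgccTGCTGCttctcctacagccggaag
Ccl4, chr11:83663464-83663505, plus strand, exon 2 of 3: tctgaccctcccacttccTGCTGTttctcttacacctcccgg

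Over the whole coding sequence, the ligands shared from 56.8% to 70.5% of aligned bases, with a median of 64.2% over the pairs. The pair most alike was Ccl8 and Ccl12, at 70.5% of 288 aligned bases. The longest run of identical bases between the transcripts of any 2 ligands was 23 bases, between Ccl2 and Ccl7. Ccr1 and Ccr2 shared 65.3% of coding bases and no identical run over 16 bases.

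The 7 ligand genes all lie on chromosome 11 of GRCm38, with other CC genes such as Ccl11 among them, and all 9 genes are annotated as protein coding. Ccl2 (82035571 to 82037453) and Ccl7 (82045712 to 82047525) are 8258 bases apart. Ccl12 (82101845 to 82103400) and Ccl8 (82115185 to 82116799) follow, with 11784 bases between them. Beyond a gap of 1408978 bases lie Ccl5 (83525778 to 83530518), Ccl3 (83647844 to 83649355) and Ccl4 (83662584 to 83664683). Ccl3 and Ccl4 are 13228 bases apart and on opposite strands. Ccr1 (123962124 to 123968692, minus strand) and Ccr2 (124101950 to 124113557, plus strand) lie 133257 bases apart on chromosome 9.

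Values are FPKM, fragments per kilobase of transcript scaled to the mapped fragments of the library. They allow levels of different genes to be set side by side, apart from any bias tied to a gene. The depth behind them is unknown. Relative depth, from the steps between low values, was 0.694 in control 2 and from 0.871 to 1 in the other tumors. Swimming 5 and control 1 scored highest on the first principal component, which held 23.4% of the variance. Of markers of colon epithelium, Krt20 was at 154 ± 32.2 FPKM in control tumors and 125 ± 19.1 FPKM in swimming tumors (SD, n = 6 each), while Epcam, Vil1 and Cdx2 had means of at most 0.103 FPKM in either group. In bulk tumor RNA, fewer cells of a type and less RNA per cell cannot be told apart.

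The 9 genes fell into a high and a low tier that were the same in every tumor. Ccl8, Ccl12, Ccl2 and Ccl7 held the first 4 places in all 12 tumors, and Ccr1 was always in place 5. Ccr2, Ccl4, Ccl5 and Ccl3 shared places 6 to 9. Ccl8 was the most abundant in 7 tumors, Ccl12 in 4 and Ccl2 in 1. Two-sided exact sign-flip tests over the 12 tumors were adjusted over the 8 neighboring pairs. The order came from these same values, so the tests measure how steady a difference in FPKM was from tumor to tumor. They cannot rank the transcripts themselves, as a bias tied to a gene would recur in every tumor. Ccl12 was above Ccl2 in 9 of 12 tumors (adjusted p = 0.0273). The mean of Ccl2 minus Ccl12 on log2(FPKM + 1) was -0.44 in control and -0.13 in swimming tumors. Ccl2 was above Ccl7, Ccl7 above Ccr1 and Ccr1 above Ccr2 in 12 of 12 tumors (adjusted p = 0.0013 for each by the same exact test). Neighbors that did not differ beyond their spread were Ccl8 and Ccl12 (adjusted p = 0.206), Ccr2 and Ccl4 (0.141), Ccl4 and Ccl5 (0.914) and Ccl5 and Ccl3 (0.72), all by the exact sign-flip test. The plot of all 9 genes by tumor shows both tiers and the overlap of the groups.

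**Figure D1:**
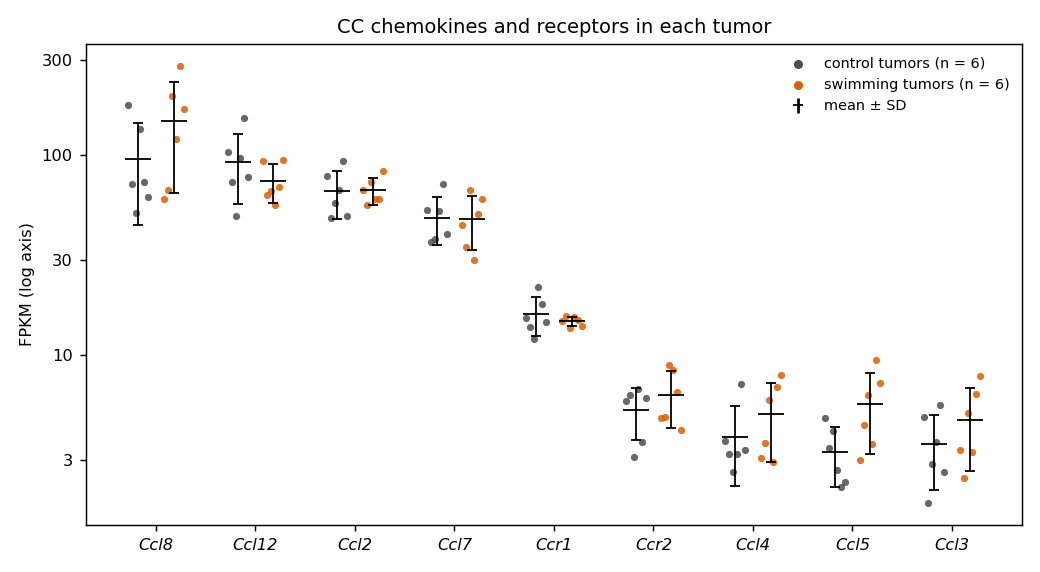
FPKM of each gene (log axis) in 6 control tumors (gray points) and 6 swimming tumors (orange points), with the mean and SD of each group as black bars, genes ordered by their mean over all tumors. Ccl8, Ccl12, Ccl2 and Ccl7 lie at or above 29.8 FPKM in every tumor, the other ligands below 10, and the groups overlap for all 9 genes.

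The comparison of interest was swimming against control, which asks whether training altered these transcripts in the tumor. Ccl5, which attracts T cells and monocytes, was the gene of the 9 with the largest difference, 1.73 times as high in the swimming group by the ratio of means. Ccl8 followed at 1.56 times, with a wider spread. Ccl2, Ccl7 and Ccr1 had nearly equal means. By limma's unadjusted p below 0.05, 1 of the 9 genes (Ccl5) was called, and 5.56% of all genes tested were. In the higher direction the background was 3.11% of genes, and Ccl5 was 510th of the 19018 genes by p. After Benjamini-Hochberg adjustment in limma 0 genes of the 19018 (0%) passed 0.05, against 1058 at an unadjusted p below 0.05, and the adjusted p of the 9 genes ran from 0.889 to 0.987. Of the 9 genes 6 were higher in the swimming group on the log2 scale, with a median difference of 0.21, while over all genes tested 51.7% were higher and the median was 0.00387. For 0 of the 9 genes were the groups free of overlap, which held for 0.147% of all genes.

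**Figure D2:**
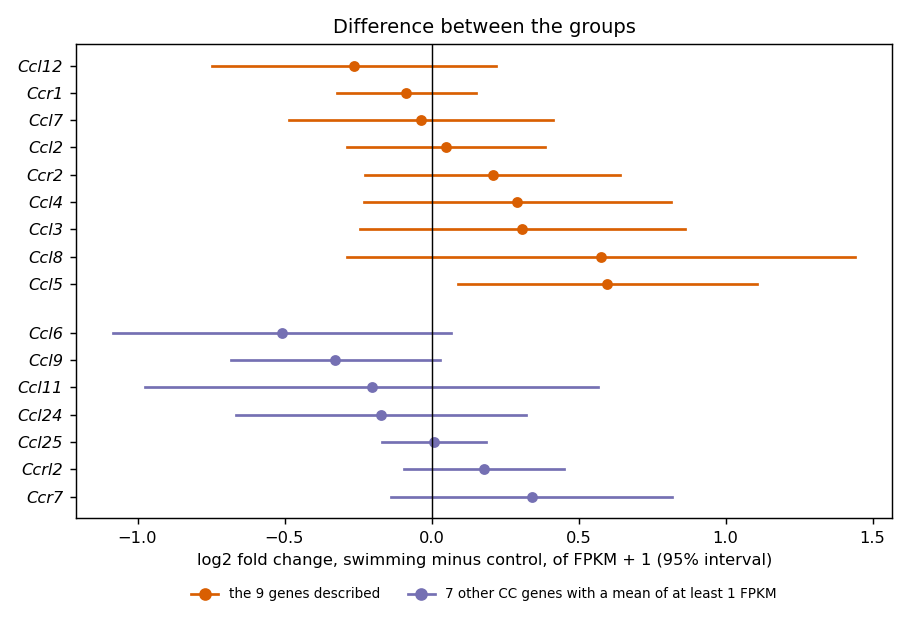
Difference between the group means of log2(FPKM + 1), swimming minus control, with the 95% interval from limma, for the 9 genes (orange) and 7 other CC genes with a mean of at least 1 FPKM (purple). The interval of Ccl5, 0.09 to 1.11, is the one that leaves out 0, and those of the other 15 genes include it.

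Among the ligands of the high tier, Ccl2, the main monocyte attractant of the family, differed little in mean. Its control tumors ran from 48.5 through a median of 62.0 to 93.7 FPKM. The swimming tumors ran from 56.2 through 63.7 to 83.3 FPKM. Every swimming tumor lay inside the control range. The difference on the log2(FPKM + 1) scale was 0.05 with an SE of 0.16 and a 95% interval from -0.29 to 0.39 (limma adjusted p = 0.981).

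Ccl7, which binds Ccr2 as well as Ccr1, gave the same picture at a lower level. Control tumors were at 36.7 FPKM at the lowest, 46.2 at the median and 71.6 at the highest. The swimming tumors were at 29.8, 47.7 and 67.1 FPKM. In 2 swimming tumors, numbers 2 and 4, Ccl7 was below all control tumors, and the other 4 lay among them. The log2 difference was -0.04 (SE 0.21, 95% interval -0.49 to 0.41, limma adjusted p = 0.987).

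Ccl12, a mouse ligand of Ccr2, had its 2 extreme values in the control group. The control tumors ranged from 49.6 in control 3 over a median of 87.4 to 153 FPKM in control 5. Swimming tumors ranged from 56.3 over 67.8 to 94.6 FPKM. All swimming tumors were therefore inside the control range, and 2 of them exceeded the control median. The means were 92.4 ± 35.1 FPKM and 73.8 ± 16.1 FPKM (SD, n = 6 each), a log2 difference of -0.26 (SE 0.22, 95% interval -0.75 to 0.22, limma adjusted p = 0.926). Without control 3 the difference was -0.42, with an unadjusted limma p of 0.0454. Without control 5 it was -0.10, with an unadjusted limma p of 0.598.

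Ccl8 was the most variable of the 9, with a coefficient of variation of 58.6% over all tumors and 5.42 times between the lowest and the highest. Control tumors had 51.5 FPKM at the lowest, 72.4 at the median and 179 at the highest. Swimming tumors had 60.6, 145 and 279 FPKM. No tumor fell between 73.0 and 120 FPKM: controls 1 and 4 and swimming tumors 3 to 6 lay above this gap, and the other 6 tumors lay below it. The means were 95.2 ± 50.3 FPKM for control and 149 ± 83.7 FPKM for swimming tumors (SD, n = 6 each). The log2 difference of 0.58 had an SE of 0.40 and an interval from -0.29 to 1.44 (limma adjusted p = 0.913, two-sided exact permutation p = 0.236).

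The low tier held Ccl3, Ccl4 and Ccl5. Ccl3, made by activated macrophages, was at 1.82 FPKM at the lowest, 3.26 at the median and 5.65 at the highest in the control group. In the swimming group the same values were 2.42, 4.25 and 7.88 FPKM. Swimming tumors 5 and 6 were above all controls, and 5 of 6 were above the control median. The log2 difference was 0.31 (SE 0.26, 95% interval -0.24 to 0.86, limma adjusted p = 0.925).

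Ccl4, the neighbor of Ccl3 on the chromosome, ran in the control group from 2.62 over 3.29 to 7.19 FPKM. It ran in the swimming group from 2.93 over 4.79 to 7.91 FPKM. The high control value belonged to control 5, and the other 5 controls reached 3.72 FPKM at most. Swimming tumors 3, 5 and 6 stood above those 5 controls, and 1 of them stood above control 5 too. The log2 difference was 0.29 (SE 0.24, 95% interval -0.23 to 0.81, limma adjusted p = 0.924).

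Ccl5 ran from 2.19 through 3.05 to 4.87 FPKM in the control group. In the swimming group it ran from 2.98 through 5.40 to 9.46 FPKM. Swimming tumors 3, 5 and 6 exceeded every control, at 6.34, 9.46 and 7.27 FPKM, and the other 3 lay within the control range. The means were 3.28 ± 1.08 FPKM and 5.68 ± 2.47 FPKM (SD, n = 6 each). The log2 difference was 0.60 (SE 0.24, 95% interval 0.09 to 1.11, limma unadjusted p = 0.0248 and adjusted p = 0.889). The two-sided exact permutation test gave p = 0.0519, where 0.00216 is the smallest that 6 against 6 allows. The unadjusted limma p was above 0.05 without control 5 (0.0564), without control 6 (0.0544), without swimming 5 (0.0579) and without swimming 6 (0.0568). Moving with it, 5 of the 12 genes of the T and NK cell list had an unadjusted p below 0.05, all higher in the swimming group. Over all genes tested 3.11% were called in that direction. None of the 12 was at 0 throughout. The summed FPKM of that list ran from 14.3 to 31.9 in control tumors and from 13.8 to 39.4 in swimming tumors, and its part in the Ccl5 result was not tested.

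Of the receptors, Ccr1, found on myeloid cells, was the more abundant. It ran from 12.1 over 15.0 to 21.8 FPKM in control tumors. All 6 swimming tumors lay between 13.6 and 15.7 FPKM, with a median of 14.9, inside the control range. Its SD was 3.46 FPKM among control tumors and 0.798 FPKM among swimming tumors, a difference that was not tested. The log2 difference in level was -0.09 (SE 0.11, 95% interval -0.32 to 0.15, limma adjusted p = 0.948).

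Ccr2, the monocyte receptor, ran from 3.11 over 6.002 to 6.77 FPKM in control tumors. Its swimming tumors ran from 4.22 over 5.70 to 8.97 FPKM. Swimming tumors 3 and 4 were above all controls, while the control median was above the swimming median. The log2 difference was 0.21 (SE 0.20, 95% interval -0.23 to 0.64, limma adjusted p = 0.934).

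The same 3 swimming tumors held the highest swimming values of several ligands, a pattern seen after the values were known. Swimming 3, 5 and 6 had the 3 highest swimming values of Ccl3, Ccl4, Ccl5 and Ccl8. The 7 ligands together came to 421, 482 and 431 FPKM in these tumors. They came to 275, 232 and 276 FPKM in swimming tumors 1, 2 and 4. The control tumors spread as widely, from 206 to 428 FPKM. Group means of this sum were 313 ± 96.5 FPKM for control and 353 ± 104 FPKM for swimming tumors (SD, n = 6 each).

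**Figure D3:**
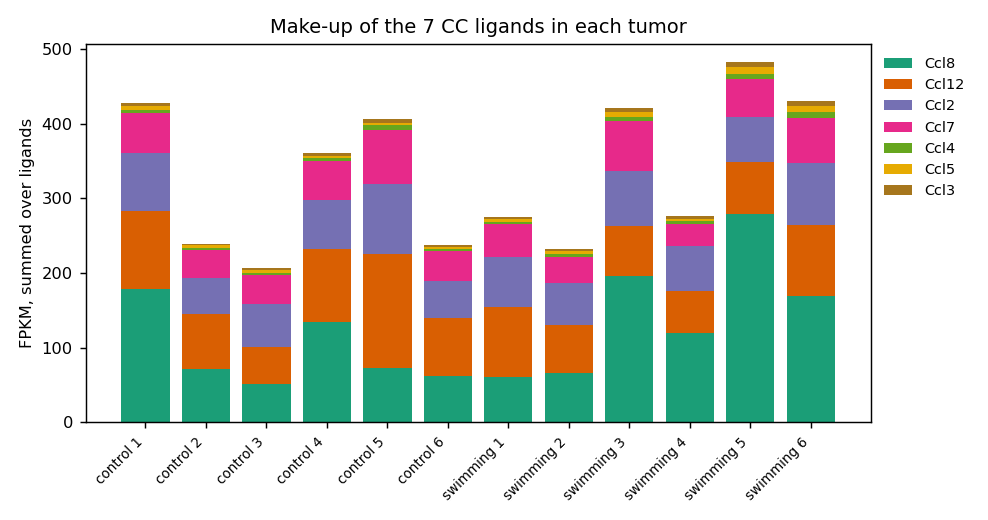
FPKM of the 7 ligands stacked for each of the 12 tumors, from Ccl8 at the bottom to Ccl3 at the top. Ccl8 takes the largest share in swimming 5 (57.9%) and the smallest in control 5 (17.99%), and Ccl3, Ccl4 and Ccl5 form a thin layer in every tumor.

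The make-up of the ligand pool varied from tumor to tumor. Ccl8 made up 29.7% ± 8.72 of ligand FPKM in control and 39.7% ± 12.9 in swimming tumors (SD, n = 6 each). Ccl12 made up 29.4% ± 5.35 and 22.3% ± 7.34. The FPKM ratio of Ccl8 to Ccl12 had a median of 1.01 in control tumors and 1.96 in swimming tumors, and it reached 4.03 in swimming 5. Its log2 difference of 0.84 between the groups gave p = 0.0996 in a two-sided exact permutation test. Of the 21 ratios between ligands, 2 had an unadjusted exact p below 0.05, both with Ccl12 as the lower term. Ccl3 to Ccl12 was higher in the swimming group by 0.57 on the log2(FPKM + 1) scale (exact permutation p = 0.0455, higher than the control median in 5 of 6 tumors). Ccl4 to Ccl12 was higher by 0.56 (exact permutation p = 0.0476, also 5 of 6). Neither passed adjustment over the 21 ratios, where the smallest adjusted p was 0.235.

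Ccl8 and Ccl12 are chromosomal neighbors, the most alike in coding sequence and the highest in mean FPKM. Over the 12 tumors the r of their levels was 0.07 (adjusted permutation p = 0.875, rho = 0.24). It was 0.48 in control and -0.13 in swimming tumors, and 0.21 as deviations from the group means. The last 60 bases before each start site, from RefSeq on GRCm38.p6, are shown for Ccl8 and Ccl12. Of the 5 members with a promoter to search, they were the ones whose window held the exact letters TATAAA, in capitals.
Ccl8, chr11:82115125-82115184, plus strand: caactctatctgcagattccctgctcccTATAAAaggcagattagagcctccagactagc
Ccl12, chr11:82101785-82101844, plus strand: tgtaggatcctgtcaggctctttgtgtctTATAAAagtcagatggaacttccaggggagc

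The motif began 32 bases before the start of Ccl8 and 31 bases before that of Ccl12, and the windows were identical at 59.3% of 59 aligned bases. Promoters of 5 of the 9 genes were matched, those of Ccl3, Ccl8, Ccl12, Ccr1 and Ccr2. The letters TATAAA on the gene's strand occurred in the 250 bases before the start in 7.59% of 32851 promoters, and in the last 60 bases in 2.87%. The kappaB-type motif, GGGA and CC with any 4 bases between them, searched on both strands, was in 17.6% of all promoters and, among the 5, in that of Ccr1. A form of the interferon-stimulated element, GAAA repeated after any 2 bases, was in 2.98% of promoters on either strand and in none of the 5. These are matches of letters, not measured binding.

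Across the 12 tumors 5 of the 6 pairs among Ccl2, Ccl3, Ccl4 and Ccl7 passed the test of Pearson's r. By that test no relation of Ccl5, Ccl8, Ccl12 or a receptor did. Of 40 relations between members or between ligand and receptor, 33 were positive, with a median Pearson r of 0.44 on log2(FPKM + 1). With permutation tests of 100000 draws adjusted over the 40, 5 passed 0.05. They were Ccl3 with Ccl4 (r = 0.85, adjusted p = 0.0204, Spearman's rho = 0.69), Ccl2 with Ccl7 (0.81, 0.0251, rho = 0.85), Ccl2 with Ccl3 (0.81, 0.0251, rho = 0.86), Ccl3 with Ccl7 (0.78, 0.0349, rho = 0.81) and Ccl4 with Ccl7 (0.77, 0.0405, rho = 0.71). By rho, 3 relations passed, those of Ccl2 with Ccl3, Ccl2 with Ccl7 and Ccl3 with Ccl7. Without the 2 tumors farthest from the median, control 5 and swimming 6 or swimming 5 and 6, these r were 0.71, 0.69, 0.74, 0.83 and 0.64, and 0 of the 40 passed adjustment over 10 tumors. Taken as deviations from the group means, 6 passed, the same 5 and Ccl2 with Ccl12 (r = 0.76, adjusted permutation p = 0.0257). In each group of 6 tumors, r was 0.70 or more for the 5 pairs. For Ccl2 with Ccl12 it was 0.79 in control and 0.67 in swimming tumors.

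**Figure D4:**
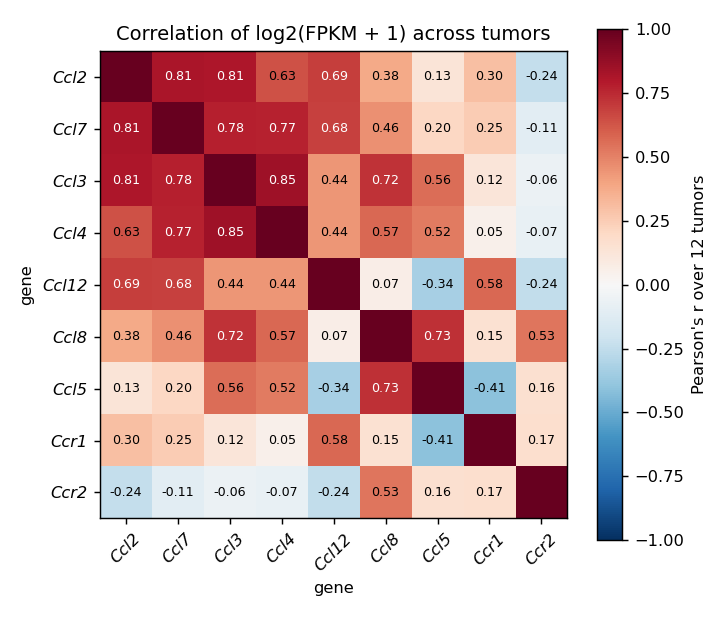
Pearson's r of log2(FPKM + 1) over 12 tumors for every pair of the 9 genes, from blue (-1) to red (1), with r printed in each cell. The block of Ccl2, Ccl7, Ccl3 and Ccl4 holds r from 0.63 to 0.85, and Ccr1 and Ccr2 are pale against most ligands.

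No relation between a ligand and its receptor passed the test. Ccl2 and Ccr2 had r = -0.24 (adjusted permutation p = 0.634). Ccl8 and Ccr8 had r = 0.67 (adjusted permutation p = 0.0543), which was 0.20 without swimming 3 and 5. Ccr8 itself was at most 0.683 FPKM and at 0 in 2 tumors. Ccl5 and Ccl8 had r = 0.73 (adjusted permutation p = 0.0505), at 0.31 in control and 0.88 in swimming tumors, and 0.51 without swimming 5 and 6. Ccl5 and Ccr1 had r = -0.41 (adjusted permutation p = 0.312). Neither passed.

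Members ran with markers of different leukocytes. Of 27 relations of the 9 genes with the mean log2(FPKM + 1) of 3 marker lists, 6 passed adjusted permutation tests by r and 5 by rho. Ccl2 ran with the neutrophil list (r = 0.93, rho = 0.96, adjusted permutation p = 0.00054), at r = 0.95 in control and 0.89 in swimming tumors, and 0.94 without controls 1 and 5. Ccl3, Ccl7 and Ccl12 ran with the same list at r of 0.77, 0.72 and 0.73. Without those controls r was 0.86 for Ccl3 (adjusted permutation p = 0.00702). It was 0.67 for Ccl7 and 0.47 for Ccl12, and neither passed (adjusted permutation p = 0.165 and 0.421). Ccl12 was the relation that did not pass by rho (0.62, adjusted permutation p = 0.171). The neutrophil list rests on S100a8 and S100a9, calcium-binding proteins of myeloid cells, at 5.88 and 9.80 FPKM on average, while Ly6g, a defining neutrophil gene, was near 0. Its summed FPKM ran from 8.42 to 43.1 in control and from 11.99 to 40.6 in swimming tumors.

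Ccl5 ran with the T and NK cell list (r = 0.91, rho = 0.89, adjusted permutation p = 0.00081), and r was 0.84 without control 5 and swimming 5. Within the groups it was 0.92 in control and 0.84 in swimming tumors. Ccl8 ran with the monocyte and macrophage list (r = 0.77, rho = 0.77, adjusted permutation p = 0.0124), at 0.80 in both groups. Without control 3 and swimming 5 it was 0.59 with an unadjusted permutation p of 0.0692 over 10 tumors, and as deviations from the group means of all 12 it passed (adjusted permutation p = 0.0162). None of the 12 macrophage markers had an unadjusted p below 0.05 between the groups. Their summed FPKM ran from 1407 to 1970 in control and from 1451 to 1876 in swimming tumors. Whether these marker lists carry any of the differences in the chemokines was not tested.

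**Figure D5:**
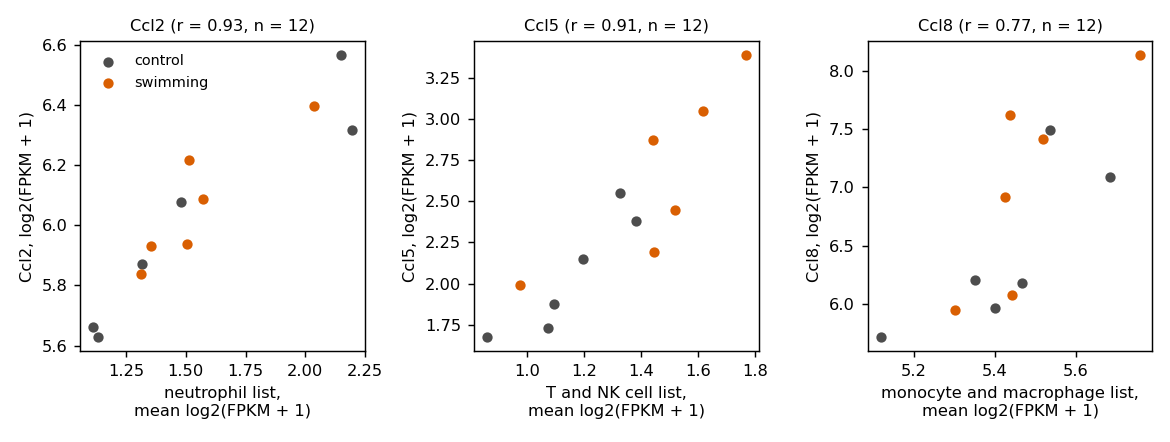
log2(FPKM + 1) of Ccl2, Ccl5 and Ccl8 (vertical axes) against the mean log2(FPKM + 1) of a marker list (horizontal axes) in 6 control tumors (gray) and 6 swimming tumors (orange). Ccl2 follows the neutrophil list (r = 0.93), Ccl5 the T and NK cell list (r = 0.91) and Ccl8 the macrophage list more loosely (r = 0.77).

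The genes whose patterns were most like the members' over the 12 tumors, among 12754 genes with a mean of at least 1 FPKM, are given as a description. Closest to Ccl2 were S100a9 (r = 0.92), S100a8 (0.92) and Osm (0.89), and closest to Ccl5 were Cd3g (0.95), a chain of the T cell receptor complex, Cyfip2 (0.94) and an immunoglobulin kappa variable segment (0.94). Closest to Ccl8 were Slfn2 (0.98), an interferon-inducible gene, Arl6ip1 (0.97) and Slc28a2 (0.95). Ccl7 was most like Trappc4 (0.90), Inafm2 (0.86) and C5ar1 (0.84), and Ccl12 most like Uqcrq (0.91), Slit2 (0.89) and Fads3 (0.88). Ccl3 was most like Sf3b5 (0.92), Cpeb4 (0.91) and Ppp4r1 (0.89), and Ccl4 most like Ppp4r1 (0.89), Ccl3 (0.85) and D030056L22Rik (0.83). For Ccr1 they were Gm3375 (0.91), Fcgr2b (0.89) and Pbp2 (0.89), and for Ccr2 Primpol (0.89), Tpcn2 (0.88) and Neurl1a (0.87). By the mean r over all 9, the first were Sf3b5 (0.60), Slpi (0.57) and Cpeb4 (0.56), followed by Cd53, Fcer1g, Wdr1, Tpm3, Saa3, Cd300ld and Ppp4r1 (0.51).

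Among the rest of the CC family no gene was called. Of 24 other CC ligands and receptors listed, 15 were tested and 0 had an unadjusted limma p below 0.05, against 5.56% of all genes. Ccl6 and Ccl9, which lie between Ccl5 and Ccl3 and bind Ccr1, were the other abundant ligands. Ccl6 was at 94.0 ± 44.2 FPKM in control and 60.8 ± 11.1 FPKM in swimming tumors (SD, n = 6 each), a log2 difference of -0.51 (95% interval -1.08 to 0.07, unadjusted limma p = 0.0779, two-sided exact permutation p = 0.128). All 6 swimming tumors were below the control median of Ccl6. Ccl9 was at 25.1 ± 6.69 and 19.6 ± 4.17 FPKM (log2 difference -0.33, 95% interval -0.68 to 0.03, unadjusted limma p = 0.0689, exact permutation p = 0.108). Ccl11, Ccl24 and Ccl25 had means from 1.304 to 3.46 FPKM in both groups. Ccr7, the homing receptor of mature dendritic cells and naive T cells, was at 0.899 ± 0.710 and 1.37 ± 0.688 FPKM, and Ccrl2, which binds chemerin, at 0.882 ± 0.270 and 1.14 ± 0.383 FPKM.

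Of genes downstream of the receptors, 2 of 22 had an unadjusted limma p below 0.05, both higher in the swimming group. Over all genes tested the share called was 5.56%, and 3.11% in the higher direction. The median log2 difference of the 22 was 0.08. Rgs2, which shortens G protein signals, was at 2.35 ± 0.455 and 3.14 ± 0.616 FPKM (log2 difference 0.30), and Fgr, a Src-family kinase of myeloid cells, at 1.21 ± 0.353 and 1.84 ± 0.701 FPKM (0.34). Of 18 genes listed for NF-kappaB signaling and inflammation, 3 were called, all higher, against the same shares. Tnf was at 1.12 ± 0.370 and 1.85 ± 0.413 FPKM (0.43), Bcl3 at 5.67 ± 0.717 and 7.03 ± 0.667 FPKM (0.27) and Rel at 2.49 ± 0.135 and 2.88 ± 0.308 FPKM (0.15). Of the 18, 11 had a positive log2 difference of any size, and the median was 0.03.

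In the interferon list 7 of 17 genes were called, all higher, against 3.11% of all genes tested in that direction. The median log2 difference of the 17 was 0.33. Ifng, the T and NK cell interferon, was at 0.367 ± 0.173 FPKM in control and 1.05 ± 0.583 FPKM in swimming tumors (log2 difference 0.55). Cxcl9, an interferon-induced chemokine of the CXC family, was at 11.8 ± 7.03 and 26.7 ± 13.2 FPKM (1.04), and Cxcl10, another, at 6.89 ± 2.33 and 13.6 ± 6.53 FPKM (0.79). Gbp2, a GTPase of host defense, was at 38.9 ± 13.8 and 81.7 ± 31.5 FPKM (0.99). Stat2, a transducer of interferon signals, had a log2 difference of 0.41 and Ciita, the regulator of MHC class II genes, one of 0.60. Swimming tumors 3, 5 and 6 had the highest means of the interferon list, at 4.004, 4.15 and 3.93 on the log2(FPKM + 1) scale, against 2.96 to 3.65 in the other swimming tumors and 3.08 to 3.48 in the controls. Controls 1, 5 and 4, with the highest control ligand sums of 428, 406 and 360 FPKM, had interferon means of 3.24, 3.08 and 3.48. The relation of the interferon list with the ligands was not tested. Adjusted p was 0.889 for each of these 12 genes in limma, and the lists were written with earlier results known, so their counts are no independent evidence. The 12 became 7 without control 5, 21 without swimming 1 and 8 without both control 1 and swimming 5.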

How the data were processed

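RNA-Seq was carried out by the authors on 12 tumors, 6 control and 6 swimming. Total RNA was depleted of ribosomal RNA, and the submitters' processing notes name HISAT2 2.0.5, StringTie 1.3.3 and limma. The deposited values are FPKM per gene, divided by the authors by length and depth. The methods name hg38 and the notes hg38 and GRCm38, while the identifiers are mouse Ensembl, so coordinates were attached by identifier from GENCODE M21 (GRCm38), which named 30542 of the 30630 genes. How reads of alike genes were divided is part of the deposited values, and read numbers and strand handling are not given in the sources used here. The absolute depth is unknown, so no counting error could be given.

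Groups and numbers came from the sample labels, which give no batch, and no tumor was left out. Genes that reached 0.1 FPKM in 6 or more tumors were fitted on log2(FPKM + 1) with lmFit and eBayes (trend) in limma 3.58.1 on R 4.3.3, with Benjamini-Hochberg adjustment over all 19018. A fold change on this scale understates that of weakly expressed genes. The script was tested on simulated data. For single genes two-sided exact permutation tests were run too, and for correlations 100000 permutations each (scipy 1.17.1). The members and gene lists were chosen with earlier results of these data known. Named were the 9 members, other CC genes with a mean of at least 1 FPKM or an unadjusted p below 0.05, genes of the lists at that p, the 10 genes most like the members on average and the 3 most like each. Some genes that the rule names are not reported here. Ccr8 and markers of the monocyte, T cell, neutrophil, dendritic and colon lists were named beside these to describe a relation. Alternatives were the pseudocount (0.1 and 0.01), filter, scaling, trend, weights, replicate block and leaving out each tumor. The ligand ratios, the order of levels and the fit without control 1 and swimming 5 were added after the data were seen.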

Additional observations from a re-analysis of the deposited data

Results flagged for a closer look

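In 34 groups of 6 tumors looked at, 2 held a tumor far from the others by Dixon's criterion, where about 1 in 20, or 1.7, would be so by chance. Ccl4 was at 7.19 FPKM in control 5, against 2.62 to 3.72 FPKM in the other 5 controls. The same tumor had the highest Ccl2 (93.7 FPKM), Ccl7 (71.6 FPKM) and Ccl12 (153 FPKM) of all 12 and the lowest Ccl5 (2.19 FPKM). Without it the log2 difference of Ccl4 between the groups was 0.45 in place of 0.29, with an unadjusted limma p of 0.0569, and without swimming 6 it was 0.17 with one of 0.492. Ccr7 was at 2.31 FPKM in control 1, against 0.330 to 0.810 FPKM in the other controls. In control 1 the B cell marker list also summed to 5.91 FPKM, against at most 1.68 FPKM in any swimming tumor, and the adipocyte list to 132 FPKM, against at most 23.8 FPKM in any swimming tumor. The part of either in the Ccr7 value was not tested.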

How the results depend on the processing

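Over 22 alternatives the difference of Ccl3, Ccl4, Ccl5, Ccl8, Ccl12 and Ccr2 kept its sign, but single tumors moved its size: with 1 left out Ccl3 was 0.17 (without swimming 6) to 0.44, Ccl4 0.17 (without swimming 6) to 0.45 (without control 5), Ccl8 0.35 (without swimming 5) to 0.79, Ccl12 -0.42 (without control 3) to -0.10 (without control 5) and Ccr2 0.09 (without control 3) to 0.30. Reversed were Ccl2 without control 2 (-0.0299), control 6 (-0.0233) or swimming 6 (-0.0174), Ccl7 without control 5 (0.0811), swimming 2 (0.0428) or swimming 4 (0.0863), and Ccr1 without control 4 (0.00446), none with a call, and with 1 tumor left out their ranges were -0.0299 to 0.16, -0.14 to 0.0863 and -0.16 to 0.00446. The number of members called was 0 with a replicate block and 0 to 2 when 1 tumor was left out. Ccl5 had a log2 difference of 0.60 and an unadjusted limma p of 0.059 with the replicate block, and 0.45 to 0.73 with 1 tumor left out, when 8 of 12 fits stayed below 0.05. Same-numbered tumors did not deviate together (mean r = -0.12, against 0.0246 for other pairs, 0 of 6 over 0.1). These values had no test, and the labels do not say what the numbers mark, so they cannot settle whether tumors are paired. With same-numbered tumors paired, a two-sided exact sign-flip test of Ccl5 gave p = 0.156. The called genes of the signaling, NF-kappaB and interferon lists were 7 to 21, in place of 12, with 1 tumor left out. Genes at an adjusted p below 0.05 were 1 with sample weights and 0 to 3 with 1 tumor left out (3 without control 4, 2 without swimming 1). Called relations between members fell from 5 to 3 by rank and 0 without the 2 farthest tumors, and those with marker lists from 6 to 3 without them. The cause was not tested. Depth limits the genes below 1 FPKM most, such as Ccr8 and Xcr1, and control 2 is the shallowest.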

Other observations

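Of 7 dendritic cell markers 2 had an unadjusted limma p below 0.05, both higher in the swimming group, against 5.56% of all genes in either direction and 3.11% in the higher one. Xcr1, a chemokine receptor of cross-presenting dendritic cells, was at 0.212 ± 0.0292 FPKM in control and 0.524 ± 0.255 FPKM in swimming tumors (SD, n = 6 each). Its groups did not overlap (two-sided exact permutation p = 0.00216, the smallest possible), which held for 0.147% of all genes tested. Flt3 was at 0.188 ± 0.122 and 0.333 ± 0.121 FPKM. All 6 swimming tumors were above the control median of each. Of the 7 dendritic cell markers, 5 had a positive log2 difference of any size. Clec9a, at 0.364 ± 0.231 and 0.352 ± 0.145 FPKM, had one of -0.0034, and Zbtb46 had one of -0.0238. In the T and NK cell list 5 of 12 were called, Cd3d, Cd3g, Cd8a, Cd8b1 and Trac, with log2 differences from 0.43 to 0.61, while Prf1, the cytotoxic pore protein, was at 10.2 ± 4.15 and 9.01 ± 4.25 FPKM. No gene of the eosinophil and mast cell, endothelial, fibroblast, skeletal muscle or adipocyte lists was called, nor any of the keratinocyte, B cell or colon epithelium lists. Adjusted p was 0.889 for the 7 genes called here.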
